A study of Mus musculus with 2 samples.

Results

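In the spleen leukemia of mice, a small class of cells carried an unusually large share of transcripts of Ddit4, Per1 and Tsc22d3. A cell was kept if 500 or more genes were detected in it and mitochondrially encoded genes took no more than 10% of its UMIs (unique molecular identifiers, each a distinct captured transcript). Kept cells were ranked together over both libraries by the share of UMIs from these 3 genes, and the top 7% with at least 3 such UMIs were taken as members. This gave 657 members of 13310 kept cells, 253 of 6838 in the oil-labelled library and 404 of 6472 in the tamoxifen-labelled library. The top 7% itself held 932 cells, of which 275 had fewer than 3 UMIs of the genes and were left with the remaining cells.

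The study asked how single leukemia cells differ after suppression of Usp18, which encodes a negative regulator of type I interferon signaling. The leukemia was made by retroviral expression of AML1-ETO9a (AE9a), a truncated fusion oncoprotein, in fetal liver cells that carry a floxed Usp18 allele and UBCER-Cre, and was carried by adult C57BL/6 recipients of both sexes as a secondary transplant. UBCER-Cre is a Cre recombinase that tamoxifen activates and that the ubiquitin C promoter drives in all tissues, and the cells of both groups carried it. Once sick, recipients were injected with corn oil or with tamoxifen in corn oil, and GFP+ Lin- c-Kit+ spleen cells, which carry the retrovirus marker and the Kit receptor and lack mature lineage markers, were sorted on day 3 from the first injection. Each group was a pool of 3 mice in 1 library, and no label ties a cell to its mouse. Spread between mice could therefore not be measured, no test was made and no p-value is given. The genotype and treatment entries give Usp18 f/f and Usp18 delta/delta, the series title names homozygous depletion, and the study's methods include a single-cell experiment on these genotypes, so loss of both alleles is the labelled design. The treatment protocol, which gives Usp18 +/f and a heterozygous loss, disagrees with them. In the class itself, Usp18 had 8.90 CPM (the usual depth-scaled count, here over all UMIs of the summed cells) in the oil-labelled library and 17.9 CPM in the tamoxifen-labelled library, from 10 and 36 UMIs, and in the remaining cells it had 5.56 and 15.3 CPM. The transcript was thus higher in the tamoxifen-labelled library, but 3′ counts do not show whether the floxed exons were lost, so it does not check the deletion, and the groups are named by their labels. Isg15, which interferon induces and whose pathway Usp18 restrains, was at 48.2 CPM in the remaining cells of the oil-labelled library and 114 CPM in those of the tamoxifen-labelled one. Interferon-stimulated genes had a median log2 ratio, tamoxifen over oil, of 0.36 in members and 0.39 in the remaining cells.

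Ddit4 encodes REDD1, an inhibitor of the growth-promoting kinase complex mTORC1. Per1 encodes a repressor of the circadian clock, and Tsc22d3 encodes GILZ, a leucine zipper protein that restrains inflammatory transcription factors. All 3 genes are direct targets of the glucocorticoid receptor, which binds hormone in the cytoplasm, enters the nucleus and acts on DNA. They also answer to other signals, among them FOXO factors, cyclic AMP, hypoxia and the clock itself. In lymphoid cells glucocorticoids stop proliferation, and FOXO factors, which growth factor signaling keeps out of the nucleus, hold resting cells out of the cycle.

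The genes lie apart in the genome (coordinates of GRCm38, from GENCODE M21). Ddit4 (ENSMUSG00000020108) lies on the minus strand of chromosome 10 from 59949669 to 59951834, Per1 (ENSMUSG00000020893) on chromosome 11, plus strand, from 69095217 to 69109960, and Tsc22d3 (ENSMUSG00000031431) on the minus strand of chromosome X from 140539528 to 140600659. Their promoters are shown because transcripts of the 3 genes went together in cells even when one of them was left out of the ranking. Each RefSeq window (GRCm38.p6) runs from 250 bases before to 50 bases after a transcript start. It was searched on both strands for the glucocorticoid receptor hexamer AGAACA, the E-box CACGTG, the FOXO site GTAAACA, the cyclic AMP element core TGACG, the GC box GGGCGG and the CCAAT box CCAAT. Capitals mark every match, on either strand, 5′ to 3′ in the direction of the gene.
Ddit4 (chr10:59951721-59952020, minus strand): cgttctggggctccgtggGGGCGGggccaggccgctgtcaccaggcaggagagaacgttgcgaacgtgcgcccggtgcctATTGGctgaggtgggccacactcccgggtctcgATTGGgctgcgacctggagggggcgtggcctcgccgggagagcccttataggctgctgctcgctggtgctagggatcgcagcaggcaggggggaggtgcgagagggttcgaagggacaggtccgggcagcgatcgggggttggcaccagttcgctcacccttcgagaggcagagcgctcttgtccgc
Per1, window 1 of 2 (chr11:69098699-69098998, plus strand): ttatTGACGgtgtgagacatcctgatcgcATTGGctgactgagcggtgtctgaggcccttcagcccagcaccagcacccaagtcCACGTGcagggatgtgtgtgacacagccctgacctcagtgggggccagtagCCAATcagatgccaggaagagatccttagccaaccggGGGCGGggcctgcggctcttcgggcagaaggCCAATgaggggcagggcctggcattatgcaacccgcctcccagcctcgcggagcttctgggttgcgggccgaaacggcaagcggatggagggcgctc
Tsc22d3, window 2 of 3 (chrX:140600473-140600772, minus strand): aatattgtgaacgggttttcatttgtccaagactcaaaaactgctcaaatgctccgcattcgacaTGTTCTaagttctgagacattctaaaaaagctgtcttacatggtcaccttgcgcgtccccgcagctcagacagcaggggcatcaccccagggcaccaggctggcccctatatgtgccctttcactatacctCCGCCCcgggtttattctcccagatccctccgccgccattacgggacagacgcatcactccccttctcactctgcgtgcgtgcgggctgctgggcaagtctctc
The Ddit4 window held a GC box and 2 CCAAT boxes. The Per1 window shown held an E-box, a cyclic AMP element core, a GC box and 3 CCAAT boxes. The Tsc22d3 window shown held a receptor hexamer and a GC box. The windows not shown held no receptor hexamer and no E-box. Of these, window 2 of Per1 held a cyclic AMP core, a GC box and a CCAAT box. Window 1 of Tsc22d3 held a GC box and window 3 a cyclic AMP core. No window of the 3 genes held the FOXO site. Over all 32851 mouse windows of this kind, the receptor hexamer is found in 19.0%, the E-box in 7.15%, the cyclic AMP core in 20.8%, the GC box in 35.7%, the CCAAT box in 37.4% and the FOXO site in 3.65%. A match is a run of letters and not a measured binding site.

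The rule sets the levels of its own genes, so these are given as a description. Tsc22d3 had 528 CPM in members and 28.4 CPM in the remaining cells of the oil-labelled library, and 499.9 and 37.4 CPM in the tamoxifen-labelled one. Ddit4 had 213 CPM in members and 18.0 CPM in the remaining cells of the oil-labelled library, and 209 and 33.1 CPM in the tamoxifen-labelled one. Per1 had 130.0 CPM in members and 14.6 CPM in the remaining cells of the oil-labelled library, and 139.6 and 22.4 CPM in the tamoxifen-labelled one. Tsc22d3 was detected in 90.5% and 91.1% of members of the oil-labelled and tamoxifen-labelled libraries, Ddit4 in 55.7% and 60.1%, and Per1 in 44.7% and 49.8%. Few members held all 3 transcripts, 46 of 253 and 89 of 404, and 69 and 85 held 1 of them only. The members just inside the threshold had shares of 519, 519 and 522 CPM, and the cells just outside had 516, 515 and 515 CPM. At this threshold 3 UMIs are enough in a cell of up to 5782 UMIs, so the rule favors shallow cells. Members had a median of 4270 and 4597 UMIs per cell, against 8916 and 8567.5 in the remaining cells of the same library. They had 1884 and 1898.5 genes per cell against 2851 and 2673. With every cell thinned to 3000 UMIs, the medians were 1479 and 1382.5 genes in members and 1413 and 1351 in the remaining cells. The share of UMIs from mitochondrially encoded genes was alike, with medians of 6.34% and 6.29% in members and 6.84% and 6.87% in the remaining cells. The libraries shared 12 barcodes among kept cells.

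Members made up 3.70% (exact binomial 95% interval 3.27 to 4.17) of kept cells in the oil-labelled library and 6.24% (5.66 to 6.86) in the tamoxifen-labelled library. The order was the same within depth. In cells of up to 4532 UMIs the shares were 10.5% and 15.8%, in the next depth class, up to 6974 UMIs, 7.17% and 10.5%, and in the class up to 9993 UMIs 0.927% and 4.02%. Above 14024 UMIs no member was found among 1472 and 1190 cells. All intervals here and below cover counting error only, not the spread between mice.

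**Figure D1:**
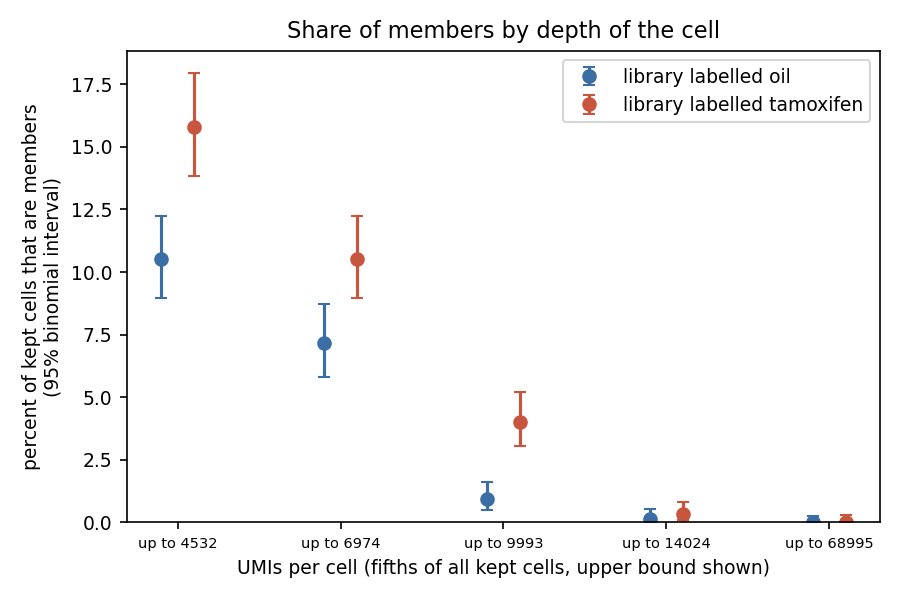
Percent of kept cells that were members (y axis) in 5 classes of UMIs per cell holding equal numbers of cells (x axis, upper bound of each class), by library; points are shares and bars exact 95% binomial intervals. The tamoxifen-labelled library was above the oil-labelled library in the first 3 classes, at 15.8% against 10.5%, 10.5% against 7.17% and 4.02% against 0.927%, and beyond them they were at most 0.317%.

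To read each gene on cells it did not choose, cells were ranked on 2 of the genes, with at least 2 UMIs, and the third was read, which gave 225 to 491 cells per ranking and library. Ddit4 had 79.3 CPM in the high-ranked and 20.002 CPM in the other cells of the oil-labelled library, and 93.6 and 36.7 CPM in the tamoxifen-labelled library, a log2 ratio of 1.99 (1.70 to 2.26) and 1.35 (1.14 to 1.55). Per1 had 58.4 CPM in the high-ranked and 15.5 CPM in the other cells of the oil-labelled library, and 70.7 and 24.6 CPM in the tamoxifen-labelled library, a log2 ratio of 1.91 (1.59 to 2.22) and 1.52 (1.28 to 1.76). Tsc22d3 had 129 CPM in the high-ranked and 35.1 CPM in the other cells of the oil-labelled library, and 121 and 49.5 CPM in the tamoxifen-labelled library, a log2 ratio of 1.88 (1.64 to 2.11) and 1.28 (1.11 to 1.45). Each gene was thus higher in cells picked by the other 2, in both libraries. Because high-ranked cells were shallow, the other cells were also weighted to the same distribution of UMIs per cell, called depth-weighted below. The log2 ratios were then 0.74 and 0.76 for Ddit4, 0.94 and 0.82 for Per1 and 0.59 and 0.55 for Tsc22d3, lower than before and all above 0. Within cells called G1 and depth-weighted they ran from 0.38 to 0.73.

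Other genes were compared between members and the remaining cells of the same library, over 7821 genes with at least 500 UMIs in each library. The class was chosen on expression in these cells, so the ratios describe it and are no test. At 1.5-fold in both libraries, 1272 genes were higher in members (16.3% of genes) and 1240 were lower (15.9%). Against depth-weighted remaining cells 79 were higher (1.01%) and 305 lower (3.9%). Of those 79 genes 77 were also among the 1272, and 294 of the 305 were among the 1240. The median log2 ratio of all genes was 0.11 and 0.07, and -0.01 and -0.01 after depth weighting. TMM scaling shifted the median by -0.30 and -0.22 and turned the split to 613 higher and 1796 lower. A total that omits mitochondrial and ribosomal protein genes gave 974 higher and 1393 lower.

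The strongest genes outside the rule were led by Klf2, a zinc finger factor that FOXO proteins induce and that holds lymphocytes at rest. Klf2 had 772 CPM in members and 64.8 CPM in the remaining cells of the oil-labelled library, and 392 and 46.1 CPM in the tamoxifen-labelled one. Its log2 ratio was 3.57 (3.47 to 3.68) and 3.09 (2.97 to 3.20), and 1.48 and 1.46 after depth weighting, the highest of all measured genes outside the rule when ranked by the lower of both libraries. Klf2 UMIs came from 127 of 253 and 137 of 404 members, and the 5 cells with most UMIs held 21.9% and 22.0% of them. Many members thus had no Klf2 UMI at all. Sgk1, a kinase that glucocorticoids induce, had 624 CPM in members and 77.3 CPM in the remaining cells of the oil-labelled library, and 532 and 119.5 CPM in the tamoxifen-labelled one. Its ratio was 3.01 (2.90 to 3.13) and 2.15 (2.06 to 2.25), and 1.08 and 0.61 after depth weighting, and a UMI was found in 153 and 243 members. Pik3ip1, an inhibitor of PI3 kinase, had 218 CPM in members and 29.2 CPM in the remaining cells of the oil-labelled library, and 184 and 42.7 CPM in the tamoxifen-labelled one. Its ratio was 2.90 (2.70 to 3.09) and 2.11 (1.95 to 2.27), and 1.07 and 0.81 after depth weighting. Stk17b, an apoptosis-associated kinase, was detected in 151 and 234 members and had ratios of 2.55 and 2.12, and 0.997 and 0.95 after depth weighting.

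**Figure D2:**
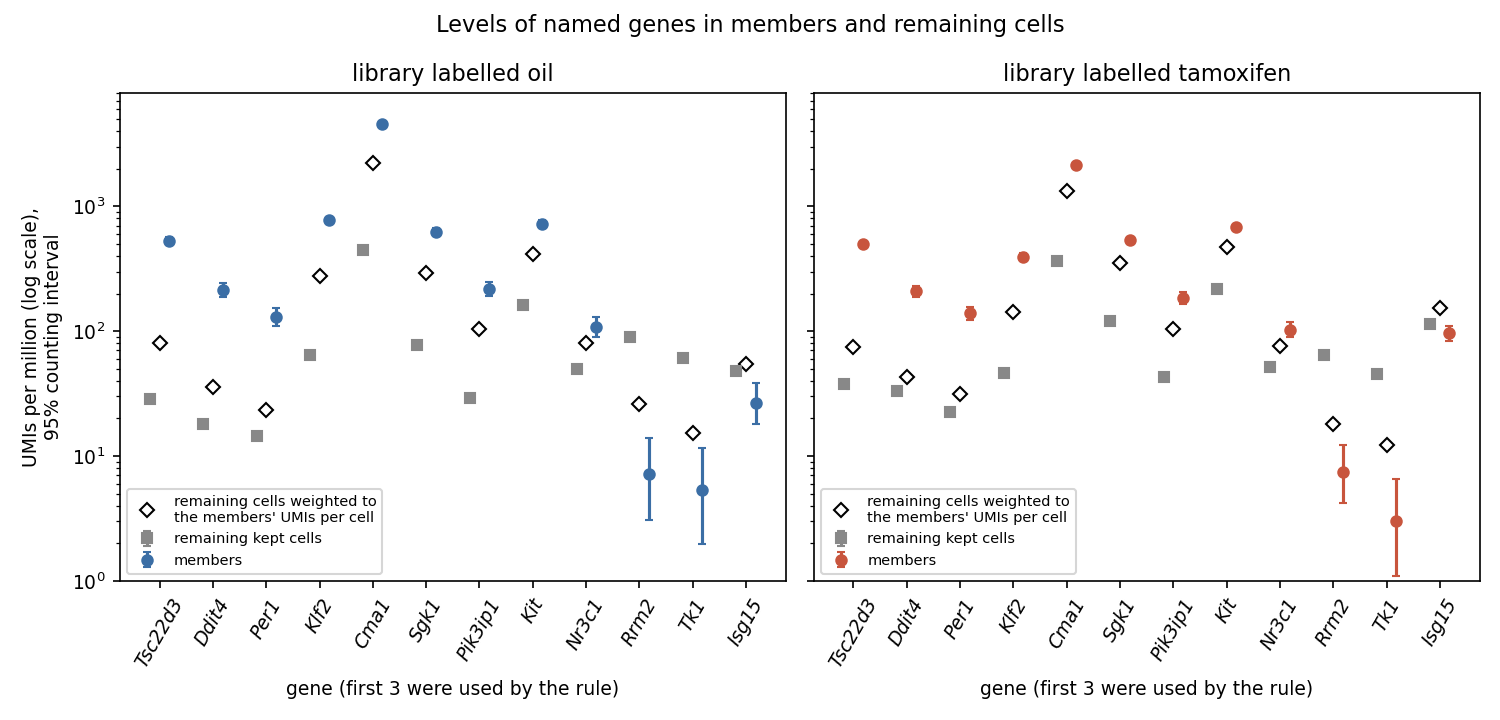
CPM (log y axis) of 12 genes (x axis, the first 3 used by the rule) in members (circles) and remaining cells (squares), with exact Poisson 95% intervals, and in remaining cells weighted to the members' UMIs per cell (open diamonds), by library. Members stood above the weighted level for Klf2, Cma1, Sgk1, Pik3ip1, Kit and Nr3c1 and below it for Rrm2, Tk1 and Isg15 in both libraries.

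Secretory granule genes of mast cells stood high in the same list. Cma1, a mast cell chymase, had 4550.3 CPM in members and 448 CPM in the remaining cells of the oil-labelled library, and 2148 and 367 CPM in the tamoxifen-labelled one. Its ratio was 3.35 (3.30 to 3.39) and 2.55 (2.50 to 2.60), and 1.04 and 0.71 after depth weighting. Tpsab1, a tryptase, had ratios of 2.61 and 2.13, and 1.16 and 0.79 after depth weighting, from 28 and 35 members with a UMI. Receptors and signaling genes of immune cells were Lilr4b, an inhibitory receptor, at 3.33 and 2.64, Il10ra, the interleukin-10 receptor, at 2.25 and 2.19, Rgs1, a regulator of G protein signaling, at 2.38 and 2.52, and Sla, an adaptor that dampens receptor signaling, at 2.42 and 2.03. Their depth-weighted ratios were 1.25 and 0.999 for Lilr4b, 0.41 and 0.77 for Il10ra, 0.37 and 1.14 for Rgs1 and 0.79 and 0.79 for Sla. The rest of the 20 highest were Chst1, Fxyd5, Ctsc, Myadm, S100a6, Tppp3, Rhob, Ahnak, Tecpr1 and Tubb2b, with ratios between 1.96 and 3.66. All 20 stayed above 0 in both libraries after depth weighting, and 14 of them stayed past 1.5-fold. S100a6, a calcium-binding protein, ended at 0.28 and 0.28, and at -0.041 and 0.016 among G1 cells with depth weighting. Of the promoters of these 20 genes, 22 windows of 14 genes were in the RefSeq table. The receptor hexamer was in 22.7% of these windows, the E-box in 13.6% and the FOXO site in 4.55%, beside the shares of all windows given above.

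Hormone receptor and target genes were described as lists. In the glucocorticoid response list, 11 of 18 measured genes outside the rule were higher in both libraries and none lower, with medians of 1.52 and 1.26, and 0.46 and 0.42 after depth weighting, when 4 were higher. Klf9, a Krüppel-like factor that the receptor induces, had 193 CPM in members and 44.5 CPM in the remaining cells of the oil-labelled library, and 228 and 61.1 CPM in the tamoxifen-labelled one. Its ratio was 2.12 (1.91 to 2.32) and 1.90 (1.76 to 2.04), and 0.92 and 0.90 after depth weighting. Klf9 was chosen after its values were seen. Dusp1, a phosphatase that shuts off MAP kinases, had ratios of 1.67 and 2.39, and 0.83 and 1.36 after depth weighting. Fkbp5, a cochaperone and a classical receptor target, was too low for the counts, with 9 and 17 UMIs in members. It had 8.01 CPM in members and 0.555 CPM in the remaining cells of the oil-labelled library, and 8.47 and 0.938 CPM in the tamoxifen-labelled one, a ratio of 3.85 (2.61 to 4.93) and 3.18 (2.30 to 3.98), and 1.81 and 1.35 after depth weighting. The lowest genes of the list stayed near or below 0. Smap2, a regulator of membrane traffic, had ratios of -0.023 and 0.20, the membrane protein gene Stom of -0.038 and -0.37 and the insulin receptor substrate Irs2 of -0.034 and -0.45.

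Nr3c1, the glucocorticoid receptor itself, had 109 CPM in members and 49.3 CPM in the remaining cells of the oil-labelled library, and 103 and 51.6 CPM in the tamoxifen-labelled one. Its ratio was 1.14 (0.87 to 1.40) and 0.99 (0.78 to 1.20), and 0.42 and 0.43 after depth weighting. The list of receptor and cofactors had medians of 0.11 and 0.22. In it, 3 of 13 genes were higher and 5 lower, beside 16.3% and 15.9% of all genes. Those higher were Nr3c1, the coactivator Ncoa2 at 1.06 and 0.82 and the corepressor Ncor1 at 0.98 and 0.67. The lowest were chaperones that hold the unbound receptor, Hsp90aa1 at -1.41 and -1.16, Fkbp4 at -1.42 and -1.16 and Stip1 at -1.44 and -1.06. None of the 13 passed 1.5-fold in both libraries after depth weighting, when Hsp90aa1 was at -0.57 and -0.40.

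In the FOXO response list, 10 of 15 genes were higher and none lower, with medians of 1.05 and 0.83, and 0.28 and 0.25 after depth weighting, when 2 were higher. These 2 were Klf2 and Pik3ip1, which the lists share. Txnip, an inhibitor of glucose uptake and thioredoxin, had 2504 CPM in members and 587 CPM in the remaining cells of the oil-labelled library, and 1965 and 710.5 CPM in the tamoxifen-labelled one, and its depth-weighted ratio was 0.65 and 0.43. Cited2, a transcriptional coregulator, had ratios of -0.13 and -0.15. Among mTORC1 inhibitors other than Ddit4, 3 of 13 were higher and none lower, with medians of 0.24 and 0.18. These were Prkab1, a subunit of AMP kinase, at 1.08 and 1.13, the tuberous sclerosis gene Tsc1 at 1.04 and 0.85 and the sestrin Sesn1 at 0.93 and 0.75. The genes of the mTOR complexes and their activators had medians of -0.016 and 0.19, with 4 of 21 higher, among them Rictor at 0.89 and 0.97. Of all 7821 genes 16.3% were higher in both libraries, so the counts of higher genes in both mTOR lists lay near that share. Rheb, the small GTPase that activates mTORC1, had ratios of -0.62 and -0.41. No gene of either mTOR list passed 1.5-fold in both libraries after depth weighting.

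Clock genes other than Per1 were higher in 6 of 8 cases, with medians of 0.97 and 0.66, and 0.25 and 0.25 after depth weighting, when none was past 1.5-fold in both libraries. Bhlhe40, a clock repressor, had ratios of 1.24 and 1.17, and -0.005 and 0.20 after depth weighting. Clock, which drives the cycle, had 1.05 and 1.02, and 0.38 and 0.44. Cry1, a partner of Per1 in repression, had 0.17 and -0.006. Immediate early genes, transcribed soon after a stimulus, were higher in 17 of 18 cases and lower in 1, with medians of 1.65 and 1.54. After depth weighting the medians were 0.59 and 0.64, with 7 higher and 1 lower. Fos, a subunit of the AP-1 factor, had 219.9 CPM in members and 57.7 CPM in the remaining cells of the oil-labelled library, and 114 and 23.0 CPM in the tamoxifen-labelled one, and its depth-weighted ratio was 0.85 and 1.22. The lower gene was Myc, a driver of growth, with 15.1 CPM in members and 51.9 CPM in the remaining cells of the oil-labelled library, and 11.962 and 48.7 CPM in the tamoxifen-labelled one. Its ratio was -1.78 (-2.56 to -1.10) and -2.03 (-2.67 to -1.45), and -0.89 and -1.33 after depth weighting.

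Genes of DNA synthesis and division were low in members. Rrm2, a subunit of ribonucleotide reductase that supplies DNA synthesis, had 7.12 CPM in members and 89.4 CPM in the remaining cells of the oil-labelled library, and 7.48 and 64.1 CPM in the tamoxifen-labelled one, from 8 and 15 UMIs in members. Tk1, thymidine kinase, had 5.34 CPM in members and 60.6 CPM in the remaining cells of the oil-labelled library, and 2.99 and 45.0 CPM in the tamoxifen-labelled one, from 6 UMIs in each. C2cd4a, which encodes a nuclear protein and was also among the lowest, had 4.45 CPM in members and 87.0 CPM in the remaining cells of the oil-labelled library, and 4.98 and 66.8 CPM in the tamoxifen-labelled one. Their depth-weighted ratios were -1.87 and -1.28 for Rrm2, -1.52 and -2.03 for Tk1 and -2.52 and -2.16 for C2cd4a. The other 7 lowest were Hist1h3c, Ctps, Hells, Hist1h2bj, Dscc1, Mnd1 and Nuf2, with 1 to 11 UMIs each in members, so their ratios have wide intervals. St3gal6, a sialyltransferase chosen after its values were seen, had 0 UMIs in members of both libraries and 8.41 and 9.55 CPM in the remaining cells. Against a floor of 3 counts per library it was at least 3.15-fold and 6.39-fold lower. In the S phase list 35 of 42 genes were lower and none higher, with medians of -2.34 and -1.82, and -0.92 and -0.55 after depth weighting, when 18 were lower. In the G2M list 45 of 50 were lower and none higher, with medians of -2.84 and -1.81, and -1.22 and -0.40 after depth weighting, when 13 were lower. Kif23, a motor of cytokinesis, was level at 0.016 and 0.030. Ribosome biogenesis and Myc genes were lower in 29 of 35 cases and higher in none, with medians of -1.64 and -1.22, and -0.62 and -0.49 after depth weighting. Nolc1, a nucleolar chaperone, had 16.9 CPM in members and 128 CPM in the remaining cells of the oil-labelled library, and 23.9 and 96.5 CPM in the tamoxifen-labelled one.

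Genes of CDK inhibitors and quiescence were higher in 13 of 17 cases and lower in 1, Rbl1, with medians of 1.24 and 0.86, and 0.41 and 0.25 after depth weighting. Tob1, an antiproliferative protein, had ratios of 2.42 and 1.58, and 1.32 and 0.94 after depth weighting. Wee1, the kinase that blocks entry into mitosis, is named after its values were seen because it was second to Klf2 after depth weighting. It had 139 CPM in members and 41.2 CPM in the remaining cells of the oil-labelled library, and 109 and 31.1 CPM in the tamoxifen-labelled library. Its ratio was 1.75 (1.51 to 1.99) and 1.80 (1.59 to 2.01), and 1.23 and 1.41 after depth weighting. At 3000 UMIs per cell, 93.2% (89.1 to 96.2) of 221 members were called G1 in the oil-labelled library and 91.3% (87.9 to 94.0) of 356 in the tamoxifen-labelled library. The remaining cells were called G1 in 41.8% and 54.8% of cases, and in 78.1% and 81.2% when depth-weighted. Members called S were 3 and 4 cells, or 1.36% and 1.12%, and members called G2M were 12 and 27, or 5.43% and 7.58%. Members thus stood above the depth-weighted cells in both libraries, by less than above all remaining cells. Free RNA in droplets enters such calls as well, and its part was not tested.

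**Figure D3:**
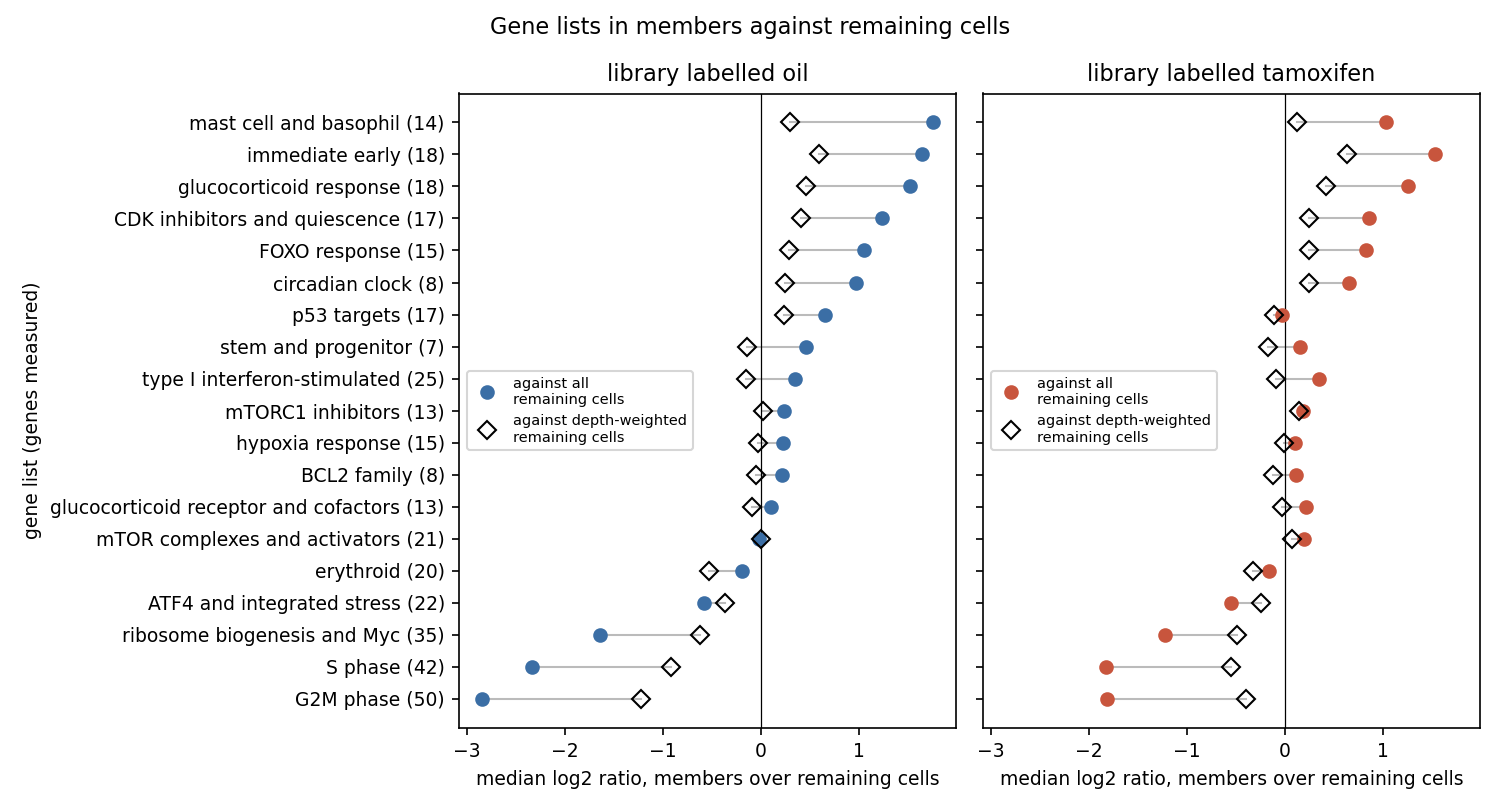
Median log2 ratio of members over remaining cells (x axis) for gene lists with at least 7 measured genes (y axis, number measured in parentheses), against all remaining cells (filled) and against depth-weighted ones (open), by library; genes of the rule are left out. Immediate early, glucocorticoid and mast cell lists were at the high end and the S, G2M and ribosome biogenesis lists at the low end, and with depth weighting the median came closer to 0 in every list but the erythroid one in both libraries and the p53, BCL2 and stem lists in the tamoxifen-labelled one.

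Stress and death genes went both ways against all remaining cells, and few of them passed 1.5-fold against depth-weighted ones. Of all 7821 genes, 16.3% were higher and 15.9% lower in both libraries against all remaining cells. ATF4 and integrated stress genes were higher in 4 and lower in 10 of 22 cases, with medians of -0.58 and -0.55. Enzymes of serine synthesis were the lowest, Phgdh at -2.85 and -2.07, Shmt2 at -2.81 and -1.88 and Psph at -2.40 and -1.58. The stress regulators Ppp1r15a, at 1.12 and 1.44, Herpud1, at 0.90 and 0.98, and Ddit3, at 0.80 and 0.91, were the highest. Hypoxia response genes, which Ddit4 also belongs to, were higher in 2 and lower in 2 of 15 cases, with medians of 0.23 and 0.11. For p53 targets the medians were 0.66 and -0.023, with 6 higher and 3 lower of 17, among them Trp53inp1 at 1.78 and 0.98 and Aen at -1.20 and -0.93. In the BCL2 family 3 of 8 were higher and 1 lower. Bbc3, a death-promoting member that glucocorticoids and FOXO factors induce, had 1.45 and 0.78, the survival gene Mcl1 had 1.14 and 0.87, and the effector Bax had -0.62 and -0.62. After depth weighting 0 ATF4 and integrated stress genes were higher and 4 lower, with medians of -0.36 and -0.24, and 0 genes of the hypoxia, p53 and BCL2 lists passed in either direction. Their medians were then -0.031 and -0.007 for hypoxia, 0.24 and -0.11 for p53 targets and -0.052 and -0.12 for the BCL2 family. Under TMM scaling the medians turned below 0 in both libraries for mTORC1 inhibitors (-0.062 and -0.033), hypoxia (-0.078 and -0.11) and the BCL2 family (-0.092 and -0.096). For the mTOR complexes they were -0.32 and -0.024, for receptor and cofactors -0.20 and 0.002, and for the stem and progenitor list 0.16 and -0.058.

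Beside 16.3% higher and 15.9% lower over all genes, type I interferon-stimulated genes, which Usp18 restrains, were higher in 3 and lower in 1 of 25 cases. Their medians were 0.35 and 0.35, and -0.15 and -0.091 after depth weighting. Samhd1, a nucleotide hydrolase, was highest at 1.66 and 1.06, and the lower gene was Ifit2, an antiviral effector, at -3.49 and -0.70. Isg15, a ubiquitin-like protein that USP18 removes from its targets, had 26.7 CPM in members and 48.2 CPM in the remaining cells of the oil-labelled library, and 96.2 and 114 CPM in the tamoxifen-labelled one. Its ratio was -0.85 (-1.42 to -0.33) and -0.25 (-0.46 to -0.040), and -1.04 and -0.67 after depth weighting, when it was the one gene of the list past 1.5-fold in both libraries.

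The sorted cells should carry Kit, and members did. Kit had 724 CPM in members and 162 CPM in the remaining cells of the oil-labelled library, and 686 and 216 CPM in the tamoxifen-labelled one. Its ratio was 2.16 (2.06 to 2.27) and 1.67 (1.59 to 1.75), and 0.80 and 0.54 after depth weighting, and a UMI was found in 208 of 253 and 311 of 404 members. Mast cell and basophil genes were higher in 11 of 14 cases and lower in none, with medians of 1.76 and 1.03, and 0.30 and 0.13 after depth weighting. Their summed level was 21285 and 14373 CPM in members, 7491 and 7323 CPM in the remaining cells, and 15149.8 and 12306 CPM in depth-weighted ones. Cpa3, a mast cell carboxypeptidase, had 2126 CPM in members and 321 CPM in the remaining cells of the oil-labelled library, and 1086 and 295 CPM in the tamoxifen-labelled one. Shallow cells of 3000 to 6000 UMIs with 0 UMIs of the 3 genes already had 987 and 806 CPM of Cpa3. Gata2, a factor of mast and stem cells, had ratios of 0.62 and 0.48, and Ms4a2, a chain of the IgE receptor, had 0.55 and 0.053. Erythroid genes were higher in none and lower in 4 of 20 cases, beside 16.3% of all genes higher and 15.9% lower. Among the 4 were the carbonic anhydrases Car1 at -1.75 and -1.55 and Car2 at -1.64 and -0.98. In the stem and progenitor list only Kit was higher, of 7.

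Genes of other lineages were low in both classes. All of the sums below but the endothelial one were higher in members than in the remaining cells, also after depth weighting. Members had 1123231 and 2006345 UMIs in all, against 64922469 and 58655141 in the remaining cells, so 0 UMIs is reached more easily in members. Among granulocyte genes 13 of 15, including Mpo, Elane and S100a8, had 0 UMIs in members of both libraries, and the list summed to 23.1 and 16.4 CPM in members and 4.13 and 3.77 CPM in the remaining cells. Among T and NK cell genes 15 of 16 were at 0, including Cd3e, Cd3d and Trac, with sums of 4.45 and 5.48 CPM in members and 0.786 and 1.21 CPM in the remaining cells. Of B cell genes 7 of 10 were at 0, including Pax5, with sums of 2.67 and 2.99 CPM in members and 0.678 and 1.28 CPM in the remaining cells. Of monocyte genes 5 of 14 were at 0, including Lyz2, with sums of 69.4 and 65.8 CPM in members and 17.6 and 21.9 CPM in the remaining cells. Megakaryocyte genes summed to 28.5 and 32.9 CPM in members and 7.56 and 10.7 CPM in the remaining cells with 6 of 10 at 0, and endothelial genes to 18.7 and 10.97 CPM in members and 56.6 and 37.5 CPM in the remaining cells, with 3 of 8 at 0, including Cdh5 and Kdr. Of these lists 1 gene was measured, the endothelial Egfl7, at -2.24 and -2.01. Depth-weighted remaining cells summed to 16.2 and 12.011 CPM for granulocyte genes, 1.88 and 2.65 for T and NK cell genes, 1.40 and 2.61 for B cell genes, 47.5 and 54.5 for monocyte genes, 21.2 and 24.6 for megakaryocyte genes and 24.2 and 18.0 for endothelial genes. The part of such cells in the results was not tested.

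Within cells of 3000 to 6000 UMIs, levels of some genes followed the number of UMIs of the 3 genes, from 0 through 1, 2 and 3 to 4 or more. Klf2 was at 192, 358, 530.5, 556 and 937 CPM in the oil-labelled library and at 112, 214, 278, 450.0 and 477 CPM in the tamoxifen-labelled library. Wee1 was at 44.1, 62.8, 117, 132 and 165 CPM and at 33.8, 46.8, 66.0, 117 and 146 CPM. Klf9 was at 86.5, 113, 159, 167 and 186 CPM and at 129.8, 133, 173, 206 and 300.2 CPM. All 3 were higher at every step in both libraries, though intervals of some neighboring steps overlapped. Isg15 went the other way, at 50.3, 48.4, 46.4, 32.9 and 12.014 CPM and at 181, 156, 94.5, 87.9 and 67.5 CPM. Summed G2M genes were at 4517, 2957, 2715, 2228 and 2057 CPM and at 3533, 2767, 2563, 3014 and 2467 CPM, with the largest step between 0 and 1 UMI and, in the tamoxifen-labelled library, a higher value at 3 UMIs than at 1. Other measures did not rise at every step. Sgk1 was at 271, 366, 459, 616 and 565 CPM and at 386, 400.1, 574, 527 and 651 CPM. From 3 UMIs to 4 or more, Cma1 fell from 2947 to 2557 CPM in the tamoxifen-labelled library. The summed glucocorticoid list fell from 6975 to 6671 CPM at that step in the oil-labelled library. The bins held 758, 476, 231, 119 and 77 cells in the oil-labelled library and 747, 494, 271, 147 and 119 in the tamoxifen-labelled library. By the number of the 3 genes detected in a member, 1, 2 or 3, the order differed. Klf2 fell, at 1409, 608 and 475 CPM in the oil-labelled library and 776, 388 and 129 CPM in the tamoxifen-labelled one. Wee1 fell as well, at 210, 136 and 59.9 CPM and at 177, 112 and 52.7 CPM. Klf9 rose, at 162, 194 and 231 CPM and at 208, 230 and 238 CPM.

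**Figure D4:**
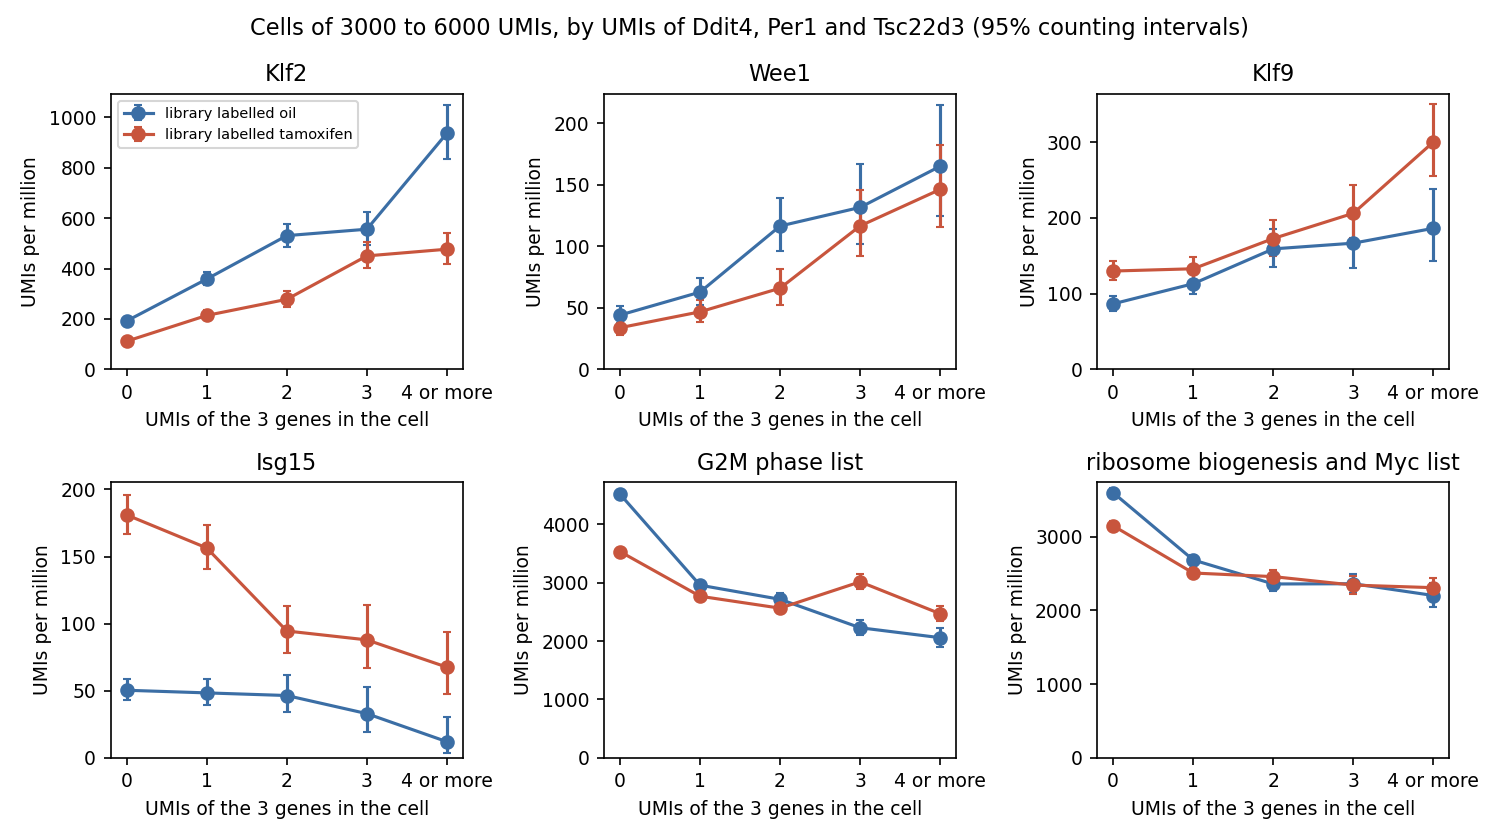
CPM (y axis) of 4 genes and 2 summed lists in cells of 3000 to 6000 UMIs, by the number of UMIs of Ddit4, Per1 and Tsc22d3 in the cell (x axis) and library; bars are exact Poisson 95% intervals. Klf2, Wee1 and Klf9 rose along the axis, Isg15 fell, and the G2M and ribosome biogenesis lists fell most from 0 to 1 UMI.

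Members were not of one kind by the gene that led, a division made after the data were seen. They held a median of 3 and 4 UMIs of the 3 genes, so the lead rests on few UMIs. Tsc22d3 had the most UMIs of the 3 genes in 156 of 253 members (61.7%) and 259 of 404 (64.1%), Ddit4 in 45 and 65, Per1 in 14 and 29, and the lead was tied in 38 and 51. Klf2 was at 1092 CPM in Tsc22d3-led and 130.2 CPM in Ddit4-led members of the oil-labelled library, and at 577 and 142 CPM in the tamoxifen-labelled library. Per1-led members, few in number, had 454 and 60.3 CPM. The log2 ratio of Tsc22d3-led over Ddit4-led members was 3.07 (2.53 to 3.67) and 2.02 (1.62 to 2.45). A Klf2 UMI was found in 59.0% and 41.3% of Tsc22d3-led members and in 33.3% and 21.5% of Ddit4-led ones. The latter were deeper, with medians of 4818 and 5341 UMIs against 4119.5 and 4210. Klf2 ratios depended on depth, as given above, and the Tsc22d3-led and Ddit4-led members were not matched for it. Klf6, a related factor, had 2.37 (1.88 to 2.90) and 1.45 (1.10 to 1.82). Wee1 had 3.08 (1.82 to 4.73) and 1.45 (0.78 to 2.19), Fos had 2.16 (1.41 to 3.03) and 1.11 (0.52 to 1.75), and Myadm, a membrane protein of myeloid cells, had 3.005 (1.85 to 4.47) and 1.96 (1.03 to 3.06). Cma1, a mast cell chymase, had 0.46 (0.35 to 0.57) and 1.80 (1.62 to 1.97), and summed immediate early genes had 1.06 (0.94 to 1.17) and 0.95 (0.85 to 1.06). All of these were higher in Tsc22d3-led than in Ddit4-led members in both libraries.

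Sgk1 had -0.67 (-0.94 to -0.39) and 0.39 (0.13 to 0.65) between Tsc22d3-led and Ddit4-led members, Pik3ip1 had -0.79 (-1.23 to -0.34) and 0.20 (-0.21 to 0.62) and Klf9 had -0.50 (-0.98 to 0.005) and 0.25 (-0.12 to 0.63), so the libraries differed in sign for each. Summed S phase genes had 0.073 (-0.12 to 0.27) and -0.076 (-0.22 to 0.070) and summed G2M genes 0.18 (0.034 to 0.33) and 0.099 (0.001 to 0.20). Nr3c1 had 0.076 (-0.61 to 0.82) and -0.18 (-0.69 to 0.36).
Cells that were not members gave a separate reading, at 3000 to 6000 UMIs with a UMI of only 1 of the 3 genes. Klf2 was at 542 and 355 CPM in cells with Tsc22d3 alone, 192 and 128 CPM with Ddit4 alone, and 192 and 112 CPM with none. Wee1 was at 110.2 and 72.6, 25.1 and 28.5, and 44.1 and 33.8 CPM in the same order. Cells with Tsc22d3 alone were above cells with none for both genes. With Ddit4 alone, Wee1 was below the level of cells with none, and Klf2 was at or slightly above it. Sgk1 was at 406 and 432 CPM with Tsc22d3 alone and 344 and 380.0 CPM with Ddit4 alone.

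**Figure D5:**
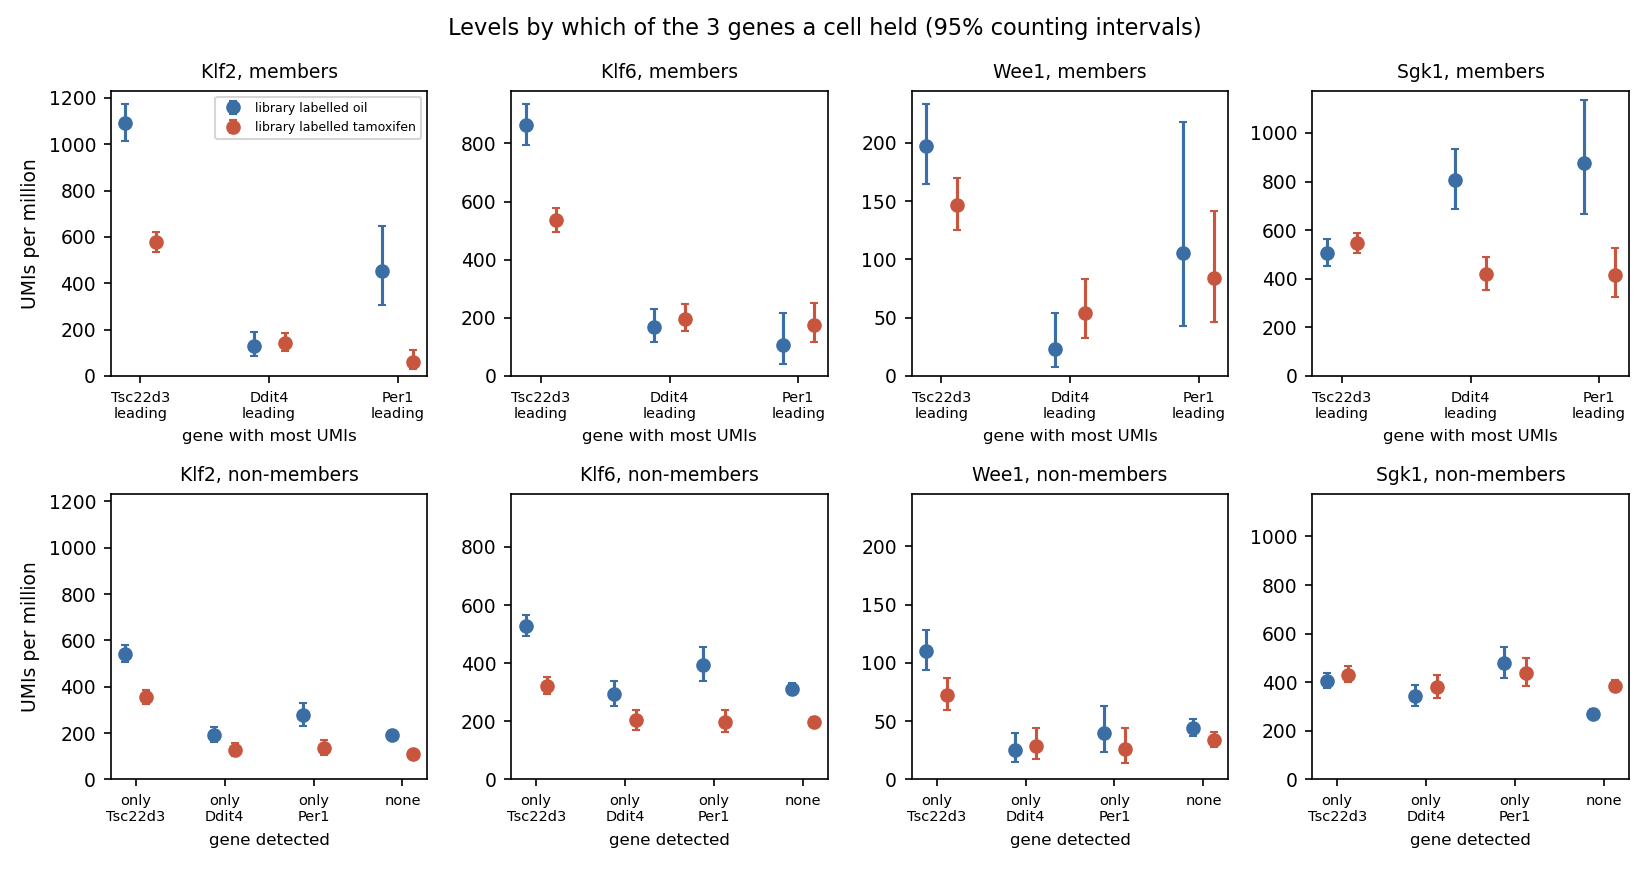
CPM (y axis) of Klf2, Klf6, Wee1 and Sgk1 in members by the gene with most UMIs (top row) and in non-members of 3000 to 6000 UMIs by the single gene detected (bottom row), by library; bars are exact Poisson 95% intervals. Klf2, Klf6 and Wee1 stood highest in Tsc22d3-led members and in cells with Tsc22d3 alone. In members Sgk1 was lower in Tsc22d3-led than in Ddit4-led cells in the oil-labelled library and higher in the tamoxifen-labelled one.

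Between the libraries, members were compared as the study compared its groups, tamoxifen over oil, with 1 pool each. Over 7821 genes, 451 were 1.5-fold higher (5.77%) and 738 lower (9.44%) in members of the tamoxifen-labelled library, and TMM scaling reversed the order to 712 and 425. Totals without mitochondrial and ribosomal protein genes gave 675 and 450. The genes of the rule, whose levels in members the rule sets, had log2 ratios of -0.079 (-0.23 to 0.070) for Tsc22d3, -0.027 (-0.26 to 0.21) for Ddit4 and 0.10 (-0.19 to 0.40) for Per1. In the remaining cells they were higher in the tamoxifen-labelled library, by 0.40, 0.88 and 0.62, and over all kept cells the 3 together were higher by 0.66 (0.60 to 0.71).

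Highest in members of the tamoxifen-labelled library were Ccnb2, a mitotic cyclin, at 1.89 (0.92 to 3.01), Isg15 at 1.85 (1.29 to 2.46), Irf7, a factor of the interferon response, at 1.83 (1.03 to 2.72), Cdca3, a cell division gene, at 1.78 (0.62 to 3.18), and Zfp521, a zinc finger gene, at 1.58 (0.54 to 2.79). In the remaining cells the same ratios were -0.43, 1.24, 1.56, -0.36 and 0.41. Ccnb2 rested on 10 and 66 UMIs, and 5 cells held 45.5% of the latter. Isg15 rested on 30 UMIs in 23 members and 193 UMIs in 80 members. With the stricter filter of 1000 genes or more and no more than 5% mitochondrial UMIs, which left 5 and 6 Irf7 UMIs and 2 and 1 Cdca3 UMIs in members, Irf7 was at -0.19 and Cdca3 at -1.45. Of 25 interferon-stimulated genes, 9 were higher in members and 9 in the remaining cells. Of all 7821 genes, 451 were higher in members and 61 in the remaining cells. Summed G2M genes were at 2534 and 3038 CPM in members of the oil-labelled and tamoxifen-labelled libraries, a log2 ratio of 0.26 (0.20 to 0.33). In the remaining cells the sums were 8943 and 7273 CPM, a ratio of -0.30 (-0.30 to -0.29). The list median was 0.48 over 50 genes in members and 0.13 over the 16 genes measured in G1 cells. The G1 call itself uses the G2M list, so it leaves out cells high in these genes, and the medians are not alike.

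Lowest were the mast cell proteases Mcpt4, at -2.81 (-3.36 to -2.29), and Mcpt1, at -1.81 (-1.98 to -1.64), followed by Tlnrd1 at -1.67 (-2.59 to -0.79), Ehd4 at -1.66 (-2.35 to -0.99) and Smad3, a mediator of TGF-beta signaling, at -1.62 (-2.55 to -0.74). The remaining cells had -0.34, -0.80, -0.44, -0.46 and -0.043. With the stricter cell filter Mcpt1 was at -0.45, from 89 UMIs in members of each library, and Ehd4 at -0.092, from 7 and 9. Mcpt4 was then at -2.15, from 13 and 4 UMIs, Tlnrd1 at -2.78, from 5 and 1, and Smad3 at -2.04, from 6 and 2. In the oil-labelled library 5 cells held 58.8% of the 153 Mcpt4 UMIs and 58.1% of the 844 Mcpt1 UMIs, 212 of which came from a single cell. Mast cell and basophil genes as a list had a median of -0.69 in members, 8 of 14 lower, against -0.21 in the remaining cells, 2 of 14 lower. Immediate early genes had -0.69, 12 of 18 lower, against -0.48, 5 of 18 lower. The remaining cells in both comparisons were not depth-weighted. Summed immediate early genes went from 5827 to 3684 CPM in members and from 3782 to 2253 CPM in depth-weighted remaining cells, no larger a fall in members. Summed mast cell and basophil genes went from 21285 to 14373 CPM and from 15149.8 to 12306 CPM, still a larger fall in members. Of all 7821 genes, 738 were lower in members and 45 in the remaining cells, so the counts of the classes have unlike backgrounds. Klf2 itself was at -0.98 (-1.12 to -0.84) in members and -0.49 in the remaining cells, which were not depth-weighted here. After depth weighting, as given above, members stood above the remaining cells by nearly the same Klf2 ratio in both libraries. At matched depth the larger fall in members is therefore not seen. With 1 pool of mice per group, the injection and all other differences between the pools cannot be told apart.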

How the data were processed

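Single-cell RNA was captured from GFP+ Lin- c-Kit+ spleen cells on a Chromium system with the 3′ V3 kit. The authors deposited UMI counts per gene and barcode for each library, made with Cell Ranger 3.0.2 on mm10 per the file headers and the submitters' processing notes, with no normalization. The deposited tables held 15085 barcodes and 31053 genes, and 35 symbols were shared by more than 1 gene. Kept cells of the oil-labelled and tamoxifen-labelled libraries had 66045700 and 60661486 UMIs. The members and the gene lists were chosen with earlier results of these data known.

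Members were taken by the rule given above. UMIs were summed by library and class and expressed as CPM with exact Poisson intervals, and log2 ratios have exact conditional binomial intervals, all at 95%. Genes with at least 500 UMIs in each library were measured, and the threshold was 1.5-fold in both libraries. Depth weighting gave the remaining cells the members' distribution over 10 classes of UMIs per cell. Phases were called with scanpy 1.11.5 after thinning to 3000 UMIs. TMM factors came from edgeR 4.0.16, used for scaling only. Genes named were the 20 highest and 10 lowest by the weaker library, the 3 highest and 3 lowest of each list, Nr3c1, Fkbp5, Usp18, Isg15 and Kit, and the 5 highest and 5 lowest tamoxifen over oil among genes of at least 20 CPM, leaving out mitochondrial, Y-linked and predicted genes. Of listed names, 6 matched no gene in the files. Scrublet marked 0% of barcodes in either library and so did not work, and doublets were not removed; leaving out the 6% with the highest scores was an alternative, as were other cell filters, class sizes, rankings, scalings and gene minimums. The ratio, interval and threshold were tested on simulated UMI sums for members over remaining cells, where 7821 genes held 200 changed ones. Of these, 91% of 2-fold and 100% of 4-fold changes were called, and 0.105% of unchanged genes. The simulated sums had counting error only. They had no single cells, no difference in depth per cell and no choice of cells on expression. These rates therefore do not carry over to the real classes.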

Additional observations from a re-analysis of the deposited data

Results flagged for a closer look

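Barcodes that the cell filter left out, 936 in the oil-labelled and 839 in the tamoxifen-labelled library, also held transcripts of the 3 genes. They drew attention as a difference in data that no comparison above uses. The 3 genes together were higher in the tamoxifen-labelled library by a log2 ratio of 0.59. Ddit4 was at 0.94, Per1 at 0.90 and Tsc22d3 at 0.28 on the same scale. In kept cells the 3 together were at 0.66, Ddit4 at 0.87, Per1 at 0.67 and Tsc22d3 at 0.52.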

How the results depend on the processing

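The stricter filter asked for 1000 genes or more and no more than 5% mitochondrial UMIs, and "filled" means that the 7% was taken from cells with at least 3 UMIs of the genes. That setting, the G1 cells with depth weighting and, except for the share of members, the minimum of 5 UMIs were chosen after seeing the data. Of the values that answer a comparison, 93 settings moved the value by less than its counting interval or a count by less than 1.5 times, and 79 moved it further; none of the latter is a change of sign. The share of members, 3.70 percent in the oil-labelled library, was 5.94 with the stricter cell filter, 2.94 with the top 5%, 4.46 with the top 10%, 0.717 with at least 5 UMIs and 4.90 with the 7% filled, and that of the tamoxifen-labelled library, 6.24 percent, was 7.13 with the stricter cell filter, 4.94 with the top 5%, 7.83 with the top 10%, 5.62 ranked by library, 2.04 with at least 5 UMIs and 9.22 with the 7% filled. Counts of genes are of the 7821 measured unless another number is given. The count higher in members, 1272 (16.3%), was 167 of 1499 (11.1%) with the stricter cell filter, 699 of 7785 (8.98%) ranked after thinning, 79 depth-weighted, 201 of 4984 (4.03%) in G1 cells, 21 of 4984 (0.421%) in G1 cells depth-weighted, 613 with TMM, 777 with equal cell weights, 631 of 4221 (14.9%) at a gene minimum of 2000 UMIs and 827 with the 7% filled. The count of lower genes, 1240 (15.9%), was 318 of 1499 (21.2%) with the stricter cell filter, 305 depth-weighted, 234 of 4984 (4.70%) in G1 cells, 39 of 4984 (0.783%) in G1 cells depth-weighted and 748 of 4221 (17.7%) at a gene minimum of 2000 UMIs. Between libraries, the 451 genes (5.77%) higher under tamoxifen were 135 of 1499 (9.01%) with the stricter cell filter, 141 of 4984 (2.83%) in G1 cells, 712 with TMM, 847 of 9775 (8.66%) at a gene minimum of 100 UMIs, 145 of 4221 (3.44%) at a gene minimum of 2000 UMIs, 1164 with at least 5 UMIs and 283 with the 7% filled, and the 738 (9.44%) lower were 191 of 1499 (12.7%) with the stricter cell filter, 365 of 4984 (7.32%) in G1 cells, 425 with TMM, 450 without mitochondrial and ribosomal protein genes, 1371 of 9775 (14%) at a gene minimum of 100 UMIs, 182 of 4221 (4.31%) at a gene minimum of 2000 UMIs and 1475 with at least 5 UMIs. The glucocorticoid list median, 1.52 in the oil-labelled library, was 0.88 with the stricter cell filter, 1.23 ranked after thinning, 0.46 depth-weighted, 0.78 in G1 cells, 0.35 in G1 cells depth-weighted, 1.22 with TMM and 1.16 with equal cell weights, and that of the tamoxifen-labelled library, 1.26, was 0.50 with the stricter cell filter, 0.94 ranked after thinning, 0.42 depth-weighted, 0.79 in G1 cells, 0.35 in G1 cells depth-weighted, 1.04 with TMM, 0.96 with equal cell weights and 1.02 at a gene minimum of 100 UMIs. The log2 ratio of Ddit4 in cells ranked on the other genes, 1.99 in the oil-labelled library, was 0.95 with the stricter cell filter, 1.56 ranked after thinning, 0.74 depth-weighted and 0.39 in G1 cells depth-weighted, and that of the tamoxifen-labelled library, 1.35, was 0.75 with the stricter cell filter, 1.04 ranked after thinning, 0.76 depth-weighted and 0.73 in G1 cells depth-weighted. The log2 ratio of Per1 in cells ranked on the other genes, 1.91 in the oil-labelled library, was 1.4997 ranked after thinning, 0.94 depth-weighted and 0.71 in G1 cells depth-weighted, and that of the tamoxifen-labelled library, 1.52, was 1.22 ranked after thinning, 0.82 depth-weighted and 0.59 in G1 cells depth-weighted. The log2 ratio of Tsc22d3 in cells ranked on the other genes, 1.88 in the oil-labelled library, was 2.13 with the stricter cell filter, 1.24 ranked after thinning, 2.19 with the top 5%, 1.62 with the top 10%, 0.59 depth-weighted and 0.38 in G1 cells depth-weighted, and that of the tamoxifen-labelled library, 1.28, was 1.501 with the top 5%, 1.08 with the top 10%, 0.55 depth-weighted and 0.48 in G1 cells depth-weighted. The G1 share of tamoxifen-labelled members was 97.1 with the stricter cell filter. Depth weighting turned smaller medians, of the hypoxia, BCL2 and interferon lists as given above, of the stem and progenitor list to -0.14 and -0.17 and of the receptor and cofactor list to -0.090 and -0.027. For values past 1.5-fold the turns follow. In G1 cells depth-weighted the sign turned for the p53 list (-0.12), S100a6 (-0.041), Bhlhe40 (-0.35), Ier5 (-0.049), Ier3 (-0.0023), Ppp1r15a (-0.30), Aen (0.031), Gata2 (-0.031), Nfe2 (-0.24) and Alas2 (-1.40) in the oil-labelled library and Nuf2 (0.54), Hells (0.23), Ier3 (-0.065), Bbc3 (-0.080), Hmmr (0.0066) and Xaf1 (-0.11) in the tamoxifen-labelled library. At a gene minimum of 2000 UMIs the sign turned for the p53 list (-0.56) in the oil-labelled library. With at least 5 UMIs the sign turned for Usp18 (-0.60) and Bcl2l2 (-0.41) in the oil-labelled library and Polk (-0.011) in the tamoxifen-labelled library. Depth-weighted the sign turned for Bhlhe40 (-0.0053), Nfe2 (-0.069) and Alas2 (-0.70) in the oil-labelled library and Ier3 (-0.016) in the tamoxifen-labelled library. With the stricter cell filter the sign turned for Trp53inp1 (-0.071) in the tamoxifen-labelled library and Irf7 (-0.19) and Cdca3 (-1.45) tamoxifen over oil in members. In G1 cells the sign turned for Alas2 (-0.86) in the oil-labelled library and Hmmr (0.21) in the tamoxifen-labelled library. Which step of a setting moved a value was not tested. Depth limits the genes with few UMIs in members, whose counting intervals are wide. No paired analysis was possible because no result comes from a test and the groups have 1 library each.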
